A study of Mus musculus with 12 samples.

Results

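Single-exon intergenic non-annotated loci are stretches of the mouse genome from which the assembly built transcripts of 1 exon, at places where the reference annotation held no gene. A locus was a member when every transcript it had in the deposited annotation carried the class code u, which marks a transcript between reference genes, and consisted of 1 exon. Members were further chosen by their counts, which had to reach 0.1 CPM (raw counts scaled to the library's total) in at least 4 of 12 libraries. The rule kept 4794 loci, which are 5.99% of the 80012 loci counted and 15.5% of the 30959 single-exon intergenic loci present before the level was asked for. All 27016 loci that passed the same level rule were tested, among them 2115 intergenic loci of several exons and 18050 loci of named genes. Since the level chose the members, levels are described below with no test, and a member that passed through the libraries of 1 group alone had to differ between groups.

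Poly(A) RNA was sequenced with paired, stranded reads from a mouse embryonic stem cell line (ESC) of the C57BL/6 strain that carries an EGFP cassette at the start of its own Eomes gene. Its product, a T-box factor, acts in the common precursors of mesoderm and endoderm, the mesendoderm. Undifferentiated ESCs at day 0 had been kept on mouse embryonic fibroblast feeders. Embryoid bodies grown in hanging drops were taken apart on day 3 and sorted by EGFP into Eo+ and Eo- cells. All 3 groups therefore carry the reporter allele and come from 1 line, and each has 4 libraries, numbered 1, 2, 5 and 6. The study names 4 sets of differentiation, which the numbers are taken to mark. Eo- cells were negative for EGFP, but not free of the transcript: Eomes stood at 46.5 ± 9.24 CPM in ESCs, at 135 ± 22.8 in Eo- and at 534 ± 101 in Eo+ cells (SD, n = 4, here and below).

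Mammalian genomes give rise to much unspliced RNA between genes. Many promoters, above all those rich in CG dinucleotides, start transcription on both strands, so that a short-lived RNA runs away from the gene. RNA can also continue past the end of a gene, be made at enhancers, or come from processed pseudogenes, which are copies of spliced mRNAs that were put back into the genome. Such copies share long stretches with their parent gene, so that reads of one can be assigned to the other.

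The sequences that follow show the positions of members in 2 such relations, and where their reads came from was not tested. The first set holds 120 bases each of 2 processed pseudogenes that members cover, because these members are among the 3 highest. Capitals mark bases that differ from the aligned transcript of the parent gene. They are Nudc-ps1 (chr8:29286862-29286981, minus strand) and Gm3375 (chr7:3181361-3181480, plus strand), on GRCm38 with sequences from GENCODE M21.
Nudc-ps1: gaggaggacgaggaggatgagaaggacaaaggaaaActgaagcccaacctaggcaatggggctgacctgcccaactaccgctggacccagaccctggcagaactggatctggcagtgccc
Gm3375: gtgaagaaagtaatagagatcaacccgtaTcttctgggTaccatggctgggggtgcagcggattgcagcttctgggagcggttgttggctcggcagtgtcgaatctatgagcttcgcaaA
Nudc-ps1 had 1 differing base from Nudc in this stretch and Gm3375 had 3 from Psmb5, and both were 98.9% identical to their parent over the whole alignment.

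The second set shows 250 bases before the start of 4 genes that lie head to head with a member on the other strand (RefSeq, GRCm38.p6). For Tchp (chr5:114707529-114707778, plus strand) and Bspry (chr4:62479812-62480061, plus strand) capitals mark the bases that the member covers. These 2 were chosen after their values were seen, as the highest of 163 members whose 5′ end lies inside such a window.
Tchp: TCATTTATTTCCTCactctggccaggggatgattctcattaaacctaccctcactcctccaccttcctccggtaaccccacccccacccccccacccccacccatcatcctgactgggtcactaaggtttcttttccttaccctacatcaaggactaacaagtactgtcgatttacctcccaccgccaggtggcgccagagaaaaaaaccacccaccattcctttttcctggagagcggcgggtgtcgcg
Bspry: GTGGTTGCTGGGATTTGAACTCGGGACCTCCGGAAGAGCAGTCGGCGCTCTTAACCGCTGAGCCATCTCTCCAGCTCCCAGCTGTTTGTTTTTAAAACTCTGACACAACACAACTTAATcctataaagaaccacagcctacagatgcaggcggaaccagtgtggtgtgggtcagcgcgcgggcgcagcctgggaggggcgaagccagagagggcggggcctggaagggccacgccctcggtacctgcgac
For T (chr17:8434173-8434422, plus strand) and Sp5 (chr2:70474673-70474922, plus strand) capitals mark CG dinucleotides, of which the windows held 14 and 6.
T: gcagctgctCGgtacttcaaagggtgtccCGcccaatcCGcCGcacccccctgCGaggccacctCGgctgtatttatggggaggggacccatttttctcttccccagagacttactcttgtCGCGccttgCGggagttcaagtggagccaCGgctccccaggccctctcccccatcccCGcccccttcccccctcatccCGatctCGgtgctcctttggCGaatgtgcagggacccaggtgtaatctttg
Sp5: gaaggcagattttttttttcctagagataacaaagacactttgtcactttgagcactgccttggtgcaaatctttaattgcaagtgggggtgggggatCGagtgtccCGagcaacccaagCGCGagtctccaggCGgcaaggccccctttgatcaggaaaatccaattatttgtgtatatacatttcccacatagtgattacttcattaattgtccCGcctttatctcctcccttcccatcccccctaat

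Library totals ran from 648413022 to 837308168 counts, so that 3 counts were worth at most 0.00474 CPM. From here on CPM are scaled by TMM factors. Fibroblast genes, which mark the feeder cells, were highest in ESC libraries: 13 of them summed to 173 to 427 CPM in ESC, 82.7 to 94.8 in Eo- and 94.3 to 145 in Eo+ libraries, and their part in the members' differences from ESCs was not tested. In Eo+ replicate 1, 15 members were at least 3 times as high as in any of the other 11 libraries, by factors of 3.22 to 16.7. Together they held 837 CPM there and 25.5 to 101 CPM elsewhere. The same library was also highest at loci examined as ribosomal. It held 5515 CPM of Gm26917 against 363 to 1861 CPM elsewhere and 189 CPM of Mir6236 against 3.72 to 15.3 CPM. Gm26917 had means of 1276 CPM in ESCs, 543 in Eo- and 1751 in Eo+ cells. Whether reads at the members that stood apart share a source with such loci was not tested. Of all tested loci, 46 stood apart in this way. ESC replicate 6 had 2 such members and the other 10 libraries had 0. The counts below include Eo+ replicate 1, and fits without it are given only where stated. Values of the members that stood apart in that library are given without it as well.

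**Figure D1:**
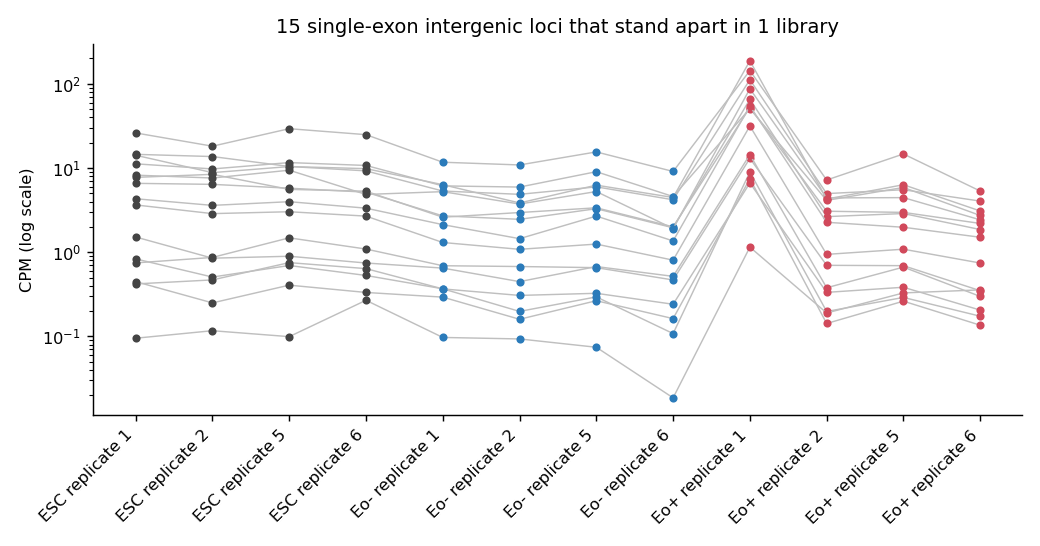
CPM of the 15 members that stood apart in Eo+ replicate 1 (log scale), by library, with 1 grey line per locus. Their sum was 837 CPM in that library and 25.5 to 101 CPM in the other 11.

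Most members were weakly transcribed. The 4794 members had median levels of 0.175 CPM in ESCs, 0.159 in Eo- and 0.133 in Eo+ cells. Per kilobase of exon (FPKM), the medians of the members were 0.196, 0.178 and 0.144, those of the intergenic loci of several exons 0.129, 0.0659 and 0.0527, and those of named genes 2.00, 2.16 and 2.34. Only 314 members had a mean of 1 CPM or more over the 12 libraries and only 19 reached 10 CPM. Members held between 0.159% and 0.248% of the counts of a library, with means of 0.222% ± 0.0271 in ESC, 0.220% ± 0.0149 in Eo- and 0.189% ± 0.0370 in Eo+ libraries, the last being 0.172% ± 0.0206 (n = 3) without Eo+ replicate 1. The 10 highest members made up 16.8% of these counts and the 100 highest 39.4%, and the 10 and 100 that were highest without that library 16.45% and 37.7%. In bulk RNA, fewer cells of a type and less RNA per cell cannot be told apart.

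The level rule was met in different libraries. Of the 4794 members, 1349 reached 0.1 CPM in all 12 libraries and 1004 in exactly 4. Libraries of ESC alone carried 591 members over the threshold, those of Eo- alone 55 and those of Eo+ alone 65. All 4 libraries had at most 3 counts at 3 members in ESC, at 13 in Eo- and at 238 in Eo+ cells. The mean was highest in Eo- cells at 1879 members (39.2%), in ESCs at 1788 (37.3%) and in Eo+ cells at 1127 (23.5%), whereas it was highest in Eo- cells at 25.1%, in ESCs at 39.9% and in Eo+ cells at 35.0% of all tested loci. At the threshold itself, the fourth-highest raw CPM was 0.10001 at XLOC_034552 and XLOC_079399, just inside, and 0.099953 at XLOC_014474 and XLOC_019989, just outside. The outer loci were at 0.116 and 0.123 CPM in ESCs against 0.00157 and 0.0652 CPM in Eo- cells, and the inner ones between 0.0677 and 0.0966 CPM in every group.

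Members were short and evenly spread over the strands, with 2435 on the plus and 2359 on the minus strand. Their length had a median of 979.5 bp and ran from 101 to 18239 bp, with quartiles at 326 and 2522 bp. On the same strand, 774 members had another member within 5 kb, so that the 4794 members formed 4378 separate chains and are not independent of each other. The term non-annotated refers to the annotation the authors used. In the later GENCODE M21 annotation 496 members (10.3%) overlapped an exon on their own strand, against 26.5% of the intergenic loci of several exons. Of these 496, 292 lay on a pseudogene, 64 on an exon of a protein-coding gene and 61 on a long intergenic noncoding RNA.

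The distance to the nearest named gene, from the edge of the member to that of the gene's transcripts that match the reference annotation, had a median of 8.08 kb, and was 11.9 kb for intergenic loci of several exons. Within 5 kb of a named gene lay 1871 members (39.0%), 670 within 1 kb, and 332 (6.93%) were more than 100 kb away, at most 917 kb. By orientation, 1377 members (28.7%) were divergent, which means on the other strand and pointing away from the gene's start. A further 1246 (26.0%) lay downstream on the gene's strand, 1088 (22.7%) upstream on the same strand, and 1043 (21.8%) were convergent, facing the gene's end from the other strand. The closest members were mostly divergent: within 1 kb there were 389 divergent, 109 convergent, 86 upstream and 46 downstream members. Only 40 members overlapped such transcripts, on the opposite strand. The assembly also built longer transcripts at many genes, and 529 members lay wholly or in part inside the full assembled extent of a named locus, 189 of them on its opposite strand. Of members named below, this holds for XLOC_031219 at T, for XLOC_000783 at the locus of Zdbf2 and for XLOC_048810 at that of Fhl3 and Sf3a3.

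Members close to a gene had a small share of its level. The FPKM of a divergent member within 1 kb had a median of 1.5% of its gene's over 370 pairs, and that of a downstream member within 5 kb a median of 1.78% over 378 pairs, of which 103 exceeded 10%. Because counting took only the strand into account, RNA that runs on past a gene's annotated end would be counted at a downstream member, and these members are uncertain as loci of their own.

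The next comparisons ask how transcription at these loci differs between pluripotent cells, cells on the way to mesendoderm, and EGFP-negative cells of the same cultures. In Eo+ vs ESC, limma called 2690 of 4794 members at an adjusted p of at most 0.05 (56.1%, against 64.5% of all tested loci), 1138 higher (23.7%, against 31.6%) and 1552 lower (32.4%, against 33.0%). In Eo- vs ESC, 2658 members were called (55.4%, against 56.5%), 1415 higher (29.5%, against 27.6%) and 1243 lower (25.9%, against 28.8%). Both comparisons share the ESC libraries. In Eo+ vs Eo-, 1838 members were called (38.3%, against 42.8%), and only 400 of these were higher in Eo+ cells (8.34%, against 19.6%) while 1438 were lower (background 23.2%). Without Eo+ replicate 1, 1440 members were called there, 342 higher and 1098 lower. In Eo+ vs ESC 2595 were then called, 1124 higher and 1471 lower.

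Called members were mostly lower in Eo+ cells. Of those called between the sorted fractions, 78.2% were lower in Eo+ than in Eo- cells, against 54.2% of all called loci, 43.3% of called named genes and 78.6% of called intergenic loci of several exons. The median log2 fold change of the members was -0.43 in this comparison, -0.06 for Eo+ vs ESC and 0.24 for Eo- vs ESC, where the medians over all tested loci were -0.05, 0.00 and 0.04. With members at the floor of 3 counts set to their bound, the members' medians were -0.41, -0.06 and 0.24. Members that passed through 1 group alone enter these splits. Among the 4083 members that reached 0.1 CPM in libraries of more than 1 group, 337 were higher and 1047 lower in Eo+ vs Eo-, 1067 and 957 in Eo+ vs ESC, and 1336 and 653 in Eo- vs ESC. Over all members, the split in Eo- vs ESC turned when an ESC library was left out, to 1105 higher and 1242 lower without replicate 2 and to 1214 and 1242 without replicate 1. Called changes of at least 2-fold numbered 2258 in Eo+ vs ESC, 872 higher and 1386 lower, and 1397 in Eo+ vs Eo-, 240 and 1157. In Eo- vs ESC they numbered 2142, 1062 higher and 1080 lower. Over all 27016 tested loci, such changes were also mostly lower in Eo+ vs Eo-, with 5960 called, 1641 higher and 4319 lower. In Eo+ vs ESC there were 10505, 4469 higher and 6036 lower, and in Eo- vs ESC 8228, 3624 and 4604. Among the 4083 members above, these splits were 802 higher and 791 lower (Eo+ vs ESC), 181 and 768 (Eo+ vs Eo-) and 988 and 491 (Eo- vs ESC).

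Direction differed with the length of the members, which the rule did not use. Of 1659 members under 500 bp, 762 were called higher and 127 lower in Eo- vs ESC (45.9% and 7.66%), with a median log2 fold change of 0.72. Of 1578 members of 2000 bp or more, 284 were higher and 650 lower, with a median of -0.38. In Eo+ vs Eo-, 37 short members were higher and 506 lower, against 254 and 456 of the long ones. In Eo+ vs ESC, 436 short members were higher and 292 lower, while 387 long ones were higher and 691 lower. These counts include members that passed the level rule through 1 group alone, 76 of the short and 321 of the long ones, and such members had to differ. Without them, 738 short members were higher and 79 lower of 1583 in Eo- vs ESC, with a median of 0.73, and 258 long members were higher and 373 lower of 1257, with a median nearer to 0, at -0.11. In Eo+ vs Eo- this left 32 higher and 452 lower short members against 223 and 294 long ones, and in Eo+ vs ESC 429 and 244 against 352 and 411. Among short loci of other kinds, 56 were called higher and 29 lower of 156 intergenic loci of several exons in Eo- vs ESC, and 174 and 51 of 486 other non-annotated or mixed loci. Of 717 named genes under 500 bp, 145 were called, 45 higher and 100 lower, while the median over all 717 was 0.07.

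The median level of short members ran from 0.0897 to 0.186 CPM over the ESC libraries, from 0.165 to 0.224 CPM over the Eo- and from 0.127 to 0.164 CPM over the Eo+ libraries, so that the groups overlapped. Leaving out 1 library at a time moved the median change of short members in Eo- vs ESC between 0.50, without ESC replicate 2, and 0.92, without ESC replicate 5. Without ESC replicate 2 the short members in Eo+ vs ESC were split into 334 higher and 366 lower. The number of short members called in Eo+ vs Eo- fell from 543 to 338 without Eo+ replicate 1 and to 367 without Eo- replicate 6, with 90.5% of called members lower in both cases. Short members also lay farther from named genes, at a median of 10.75 kb against 5.27 kb for long ones.

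**Figure D2:**
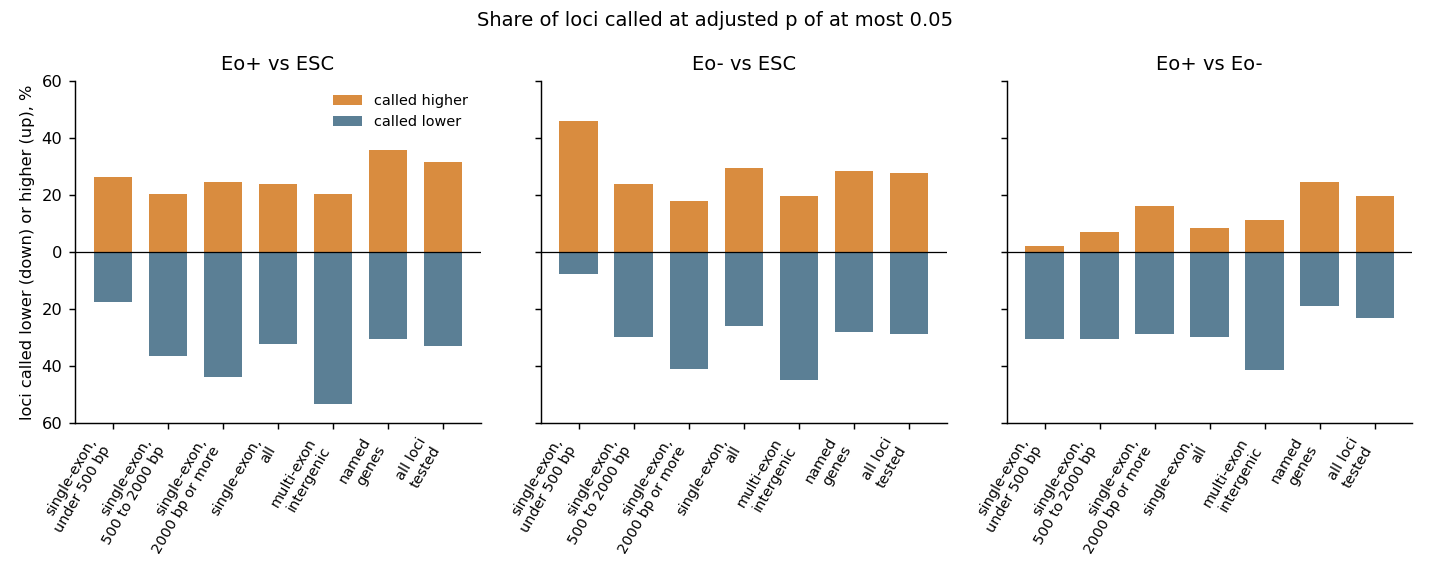
Percent of loci called higher (up) or lower (down) in each comparison, for members by length, for all members, for intergenic loci of several exons, for named genes and for all tested loci. Among members under 500 bp, 45.9% were higher and 7.66% lower in Eo- vs ESC.

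The highest member by CPM was XLOC_071972 (chr9:7797418-7803755, minus strand, 6338 bp), which faces the end of Tmem123, a gene for a transmembrane protein, from 3.08 kb away. Its libraries held 158, 159.8, 128 and 116 CPM in ESCs, 126, 129.7, 157 and 114 in Eo- and 53, 75.4, 73 and 65.5 CPM in Eo+ cells. Every Eo+ library lay below all others, and those of the other groups overlapped. Its log2 fold change (± SE, here and below) was -1.08 ± 0.14 in Eo+ vs ESC (adjusted p = 6.36e-06 by limma, as below) and -0.98 ± 0.14 in Eo+ vs Eo- (adjusted p = 6.19e-05), while Tmem123 itself rose by 0.59 ± 0.12 in Eo+ vs ESC (adjusted p = 0.000424).

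The next 2 members in rank covered the pseudogenes Nudc-ps1 and Gm3375 shown above. XLOC_068656 held 41.9, 42.9, 55.7 and 56.9 CPM in ESCs, 50, 60.4, 63.5 and 57.2 in Eo- and 47.5, 47.3, 54.6 and 48.2 in Eo+ cells. XLOC_060802 held 48.2, 54.7, 49.6 and 57.8 CPM in ESCs, 44.1, 57.1, 51.1 and 51.3 in Eo- and 46.1, 49.3, 47.9 and 50.9 in Eo+ cells. The libraries of the 3 groups overlapped at both loci, and no comparison was called for either, with log2 changes between -0.22 and 0.24. With the replicate number as a block, XLOC_068656 was called both for Eo- vs ESC (adjusted p = 0.0283) and for Eo+ vs Eo- (adjusted p = 0.0444). Their parents, Nudc, which encodes a partner of the dynein motor, and Psmb5, a catalytic subunit of the proteasome, had mean levels of 428 and 128 CPM.

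Pseudogenes weighed more in the counts of the members than in their number. The 292 members on a pseudogene (6.09%) held 14.1% of the counts of all members and were 5 of the 20 highest. A protein-coding transcript aligned to 287 of them, with a median identity of 94.2%, and 115 alignments were at least 95% identical. Where both were called, member and parent changed in the same direction at 32 of 41 loci (Eo+ vs ESC), 20 of 24 (Eo- vs ESC) and 11 of 17 (Eo+ vs Eo-). Among alignments at least 95% identical, these were 12 of 13, 10 of 11 and 4 of 4. Of the 292, 59 were called in Eo+ vs ESC (20.2%, against 56.1% of all members). Eo- vs ESC gave 53 calls (18.2%, against 55.4%) and Eo+ vs Eo- gave 33 (11.3%, against 38.3%). Only uniquely placed reads had been counted, and how many reads of a near-identical parent reached a pseudogene was not tested.

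Of the 5 other highest members, 3 were among the 15 that stood apart in Eo+ replicate 1, and their rank rests on it: XLOC_059289, XLOC_071905 and XLOC_023998 stood at 4, 5 and 8 by mean CPM and at 9, 26 and 21 without that library. XLOC_059289, downstream of the splicing factor gene Tra2a, held 26.1, 18.2, 29.3 and 24.9 CPM in ESCs, 11.7, 10.9, 15.5 and 9.11 in Eo- and 144, 7.2, 14.7 and 5.33 CPM in Eo+ cells, and its Eo+ mean was 9.07 CPM without replicate 1. XLOC_071905 held 188 CPM in that library and 3.09 to 14.2 CPM in the others, and XLOC_023998 held 112 CPM there and 4.05 to 14.5 CPM elsewhere. Their Eo+ means were 50.3 and 31.6 CPM, and 4.57 and 4.85 CPM without replicate 1. All ESC libraries of these 3 loci lay above all Eo- libraries, but none of their comparisons was called. With the replicate block, XLOC_071905 was called higher in Eo+ than in Eo- cells (adjusted p = 0.042), a rise that rests on replicate 1. The remaining 2, XLOC_053924 near the splicing gene Rsrc2 and XLOC_035662 near Arhgap19, had Eo+ means of 17.4 ± 1.23 and 20.9 ± 1.55 CPM. XLOC_053924 was not called, but with the replicate block its adjusted p was 0.0161 for Eo+ vs ESC and 0.0102 for Eo- vs ESC. XLOC_035662 rose by 0.67 ± 0.21 in Eo- vs ESC (adjusted p = 0.0148), although its ESC libraries, at 14.8, 10.4, 28.5 and 16.6 CPM, spanned the 22.7, 24.7, 27.4 and 30.8 CPM of Eo- cells in part, and the call was lost without ESC replicate 2.

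The largest changes are given next for members that reached a mean of 1 CPM in a group compared and whose libraries did not overlap there, so that weaker members with larger changes are left out. The 4 largest falls in Eo+ vs ESC and the 4 in Eo- vs ESC were at 6 members, all of which had passed the level rule through ESC libraries alone. They had to be lower at day 3, and their values are a description with no test. The 4 that fell most in Eo+ vs ESC lay more than 50 kb from any tested gene and held few or 0 counts in Eo+ cells. XLOC_065165, which overlaps a processed pseudogene of GENCODE M21, held 1.87, 3.88, 2.7 and 3.66 CPM in ESCs and 0.00703, 0.0396, 0.0451 and 0.0746 CPM in Eo- cells. All Eo+ libraries had 0 counts, so that the level was at least 721-fold lower than in ESCs. XLOC_067003 held 1.18, 1.12, 0.849 and 1.56 CPM in ESCs. XLOC_070050 held 0.993, 1.19, 0.523 and 1.97 CPM there, and both also had 0 counts in every Eo+ library, at least 280-fold and 278-fold lower. In Eo- cells they still held 0.0385 to 0.0586 CPM and 0.0236 to 0.0340 CPM. XLOC_033885, on chromosome 18 and 11.2 kb from Gm10125, went from 3.05 ± 0.879 CPM in ESCs to 0.0394 ± 0.0193 in Eo- and 0.00322 ± 0.00543 in Eo+ cells.

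The other 2 of the 4 largest falls in Eo- vs ESC lay closer to genes. XLOC_013020 (chr11:86810532-86816411, minus strand), 2.79 kb upstream of the helicase gene Dhx40, held 29.3, 13, 19.2 and 7.27 CPM in ESCs, 0.0621, 0.0409, 0.0584 and 0.046 in Eo- and 0.0452, 0.0343, 0.079 and 0.0269 CPM in Eo+ cells. The ESC libraries differed widely among themselves, but all lay far above the day 3 libraries, with a log2 change of -8.22 ± 0.80 from ESC to Eo- cells and of -8.47 ± 0.88 to Eo+ cells. Dhx40 had log2 changes of -0.21 ± 0.09 and -0.04 ± 0.09, which were not called, the former with an adjusted p of 0.0504 and, with the replicate block, 0.0191. XLOC_044836 (chr3:129757357-129763892, plus strand), divergent from the growth factor gene Egf at 2.04 kb and on an exon of the M21 gene 6330410L21Rik, held 2.43, 3.4, 2.43 and 2.65 CPM in ESCs and 0.0305 to 0.0515 CPM in Eo- cells, a log2 change of -6.08 ± 0.36. Egf, at 1.67 ± 0.407 CPM in ESCs and 1.55 ± 0.214 CPM in Eo- cells, was not called.

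**Figure D3:**
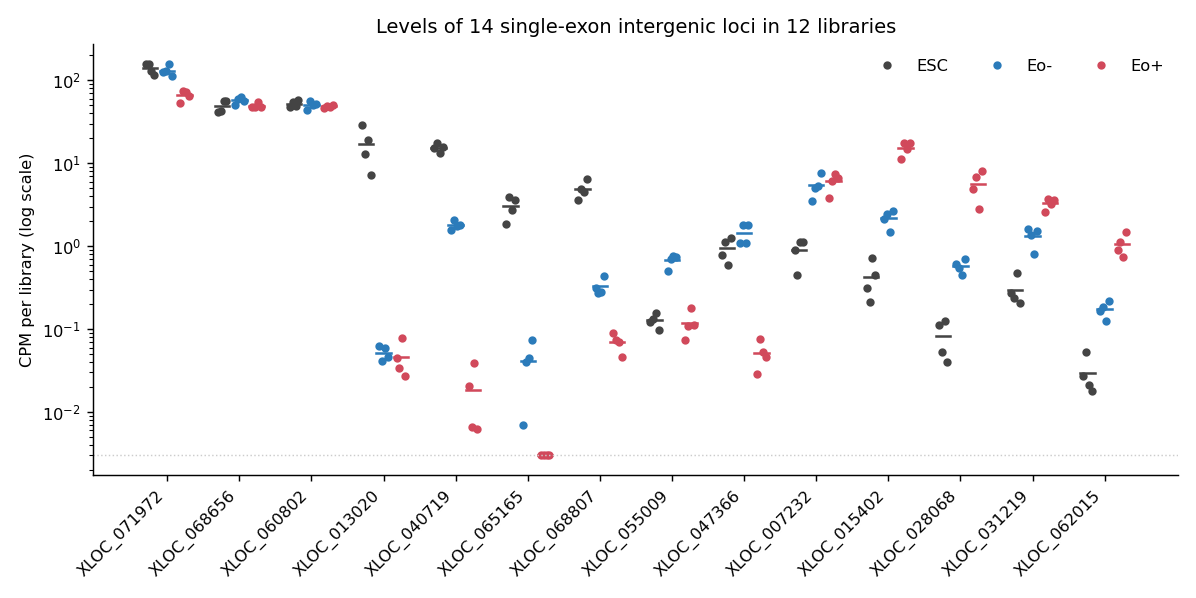
CPM per library (log scale) of 14 members, with points for the 4 libraries and a line for the mean of each group; values under 0.003 CPM are drawn on the dotted line. XLOC_065165 had 0 counts in all Eo+ libraries, and XLOC_015402 ran from 0.211 to 0.713 CPM in ESCs and from 11.3 to 17.8 CPM in Eo+ cells.

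Under the same limits, the 4 loci with the largest rises in Eo+ vs ESC were each called higher in Eo- cells than in ESCs as well. XLOC_028068 (chr16:90921831-90922125, plus strand, 295 bp) faces the end of 1110004E09Rik at 3.68 kb. It held 0.113, 0.053, 0.125 and 0.0403 CPM in ESCs, 0.616, 0.549, 0.445 and 0.707 in Eo- and 4.84, 6.91, 2.79 and 8.07 in Eo+ cells, a rise of 6.09 ± 0.52 in Eo+ vs ESC (adjusted p = 1.48e-07) and of 3.19 ± 0.33 in Eo+ vs Eo- (adjusted p = 6.06e-06). XLOC_015402 (chr12:111561873-111563662, plus strand, 1790 bp) held 0.311, 0.211, 0.713 and 0.451 CPM in ESCs, 2.14, 2.44, 1.47 and 2.62 in Eo- and 11.3, 17.8, 14.9 and 17.8 in Eo+ cells, and rose by 5.31 ± 0.31 in Eo+ vs ESC (adjusted p = 3.35e-09). In neither case did libraries of different groups overlap. The named neighbours did not follow. 1110004E09Rik changed by 0.08 ± 0.10 and 2810029C07Rik by 0.32 ± 0.18 in Eo+ vs ESC, neither of them called.

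XLOC_062015 and XLOC_062016 follow each other on chromosome 7 (chr7:49644511-49647704 and chr7:49648060-49652330, plus strand) and point away from the neural homeobox gene Dbx1 at 7.66 and 11.2 kb. XLOC_062015 held 0.0272, 0.053, 0.0214 and 0.0179 CPM in ESCs, 0.168, 0.184, 0.125 and 0.216 in Eo- and 0.904, 1.14, 0.745 and 1.5 in Eo+ cells. It rose by 5.20 ± 0.45 in Eo+ vs ESC (adjusted p = 1.61e-07), and XLOC_062016 by 4.76 ± 0.42 (adjusted p = 1.8e-07). The groups did not overlap at either locus, and whether both belong to 1 transcript was not tested. Dbx1 rose as well, by 6.06 ± 0.91 (adjusted p = 3.59e-05), to 0.667 ± 0.363 CPM.

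Among members of 1 CPM or more, the 4 largest rises in Eo- vs ESC were at loci of 167 to 397 bp. The weaker members XLOC_005257 and XLOC_018290, of 1420 and 1549 bp, rose by 3.04 and 2.65, as far as the lowest of these 4 or further. XLOC_007232, 24.3 kb from the interferon gamma receptor gene Ifngr1, held 0.895, 0.453, 1.14 and 1.14 CPM in ESCs, 3.49, 5.05, 5.4 and 7.71 in Eo- and 3.86, 6.21, 7.53 and 6.71 in Eo+ cells. It rose by 2.61 ± 0.33 (adjusted p = 1.28e-05), with no overlap between ESC and Eo- libraries, and did not differ between the fractions beyond their spread (0.18 ± 0.27, adjusted p = 0.631). XLOC_036956 and XLOC_020953 rose by 3.17 ± 0.36 and 2.90 ± 0.34, and XLOC_034589, upstream of Hmgxb3 on chromosome 18, by 2.90 ± 0.34 and further in Eo+ cells, by 1.08 ± 0.25 in Eo+ vs Eo- (adjusted p = 0.00338).

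Between the fractions, 3 of the 4 deepest falls at this level were at loci that had already fallen in Eo- cells. XLOC_040719 (chr2:40522613-40523088, minus strand, 476 bp) held 15.2, 17.6, 13.2 and 15.5 CPM in ESCs, 1.56, 2.08, 1.75 and 1.8 in Eo- and 0.0207, 0.00659, 0.0395 and 0.00632 in Eo+ cells, in steps without overlap. Its log2 changes were -3.10 ± 0.16 for Eo- vs ESC and -6.93 ± 0.52 for Eo+ vs Eo- (adjusted p = 3.62e-07). XLOC_020021 and XLOC_000783, the latter 4.41 kb from the receptor gene Gpr1, took the same course, with 6.42 ± 0.962 CPM in ESCs, 1.32 ± 0.153 in Eo- and 0.0355 ± 0.00772 in Eo+ cells at XLOC_000783 and a change of -5.19 ± 0.34 between the fractions (adjusted p = 1.14e-07). Gpr1 held less per kilobase than the intergenic locus in ESCs, 0.184 against 0.943 FPKM, and its change between the fractions, -0.35 ± 0.21, was not called. XLOC_000783 also lies wholly or in part inside the assembled extents of Gm11607 and Zdbf2, whose changes are not set beside it here. XLOC_047366 differed from these, since its Eo- libraries, at 1.08, 1.79, 1.11 and 1.81 CPM, overlapped its ESC libraries, at 0.79, 1.11, 0.598 and 1.26 CPM, and had the higher mean. Eo+ libraries held 0.0284, 0.0765, 0.0536 and 0.0458 CPM, all below the others, a change of -4.85 ± 0.46 in Eo+ vs Eo- (adjusted p = 2.65e-06). Its rise in Eo- vs ESC, 0.65 ± 0.26 at an adjusted p of 0.0448, was lost under 12 alternatives.

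Of the 4 largest rises in Eo+ vs Eo- among members of 1 CPM or more, 2 were given above and the other 2 were not called in Eo- vs ESC. XLOC_031495 (chr17:23696488-23700224, minus strand), 4.26 kb downstream of 1520401A03Rik, held 0.111, 0.112, 0.128 and 0.0985 CPM in ESCs, 0.318, 0.0959, 0.171 and 0.142 in Eo- and 1.4, 0.84, 1.67 and 1.01 in Eo+ cells. It rose by 2.83 ± 0.32 in Eo+ vs Eo- (adjusted p = 1.06e-05), with all Eo+ libraries above all others, whereas 1520401A03Rik fell by 1.19 ± 0.32 (adjusted p = 0.00873). With the replicate block the member was called in Eo- vs ESC too (adjusted p = 0.0486), as was the next locus (adjusted p = 0.0244). XLOC_033422 on chromosome 18 starts 0.225 kb from Ppic, a cyclophilin gene, on the other strand, and rose by 2.83 ± 0.41 (adjusted p = 9.47e-05) from 0.14 ± 0.0665 to 1.05 ± 0.53 CPM. Ppic rose alongside, by 1.79 ± 0.25 (adjusted p = 6.36e-05), to 119 ± 48.2 CPM.

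A group of 350 members (7.30%, against 5.45% of all tested loci) was called higher in Eo- cells than in both other groups. Of these, 46 had passed the level rule through Eo- libraries alone and had to be higher there, and the other 304 were 7.45% of the 4083 members above the level in more than 1 group. The 4 with the largest lead among those of at least 0.5 CPM in Eo- cells were 1420 to 1549 bp long and had means under 1 CPM in every group. XLOC_055009 (chr5:38621669-38623171, minus strand) held 0.121, 0.133, 0.157 and 0.097 CPM in ESCs, 0.5, 0.703, 0.766 and 0.736 in Eo- and 0.0736, 0.108, 0.18 and 0.112 in Eo+ cells, with changes of 2.39 ± 0.26 in Eo- vs ESC (adjusted p = 3.76e-06) and -2.57 ± 0.27 in Eo+ vs Eo- (adjusted p = 7.51e-06). XLOC_015518 (chr12:3551815-3553298, minus strand), 19.1 kb from Dtnb, a gene of the dystrophin complex, held 0.0816, 0.185, 0.122 and 0.254 CPM in ESCs, 0.485, 0.638, 1.02 and 0.562 in Eo- and 0.0555, 0.0343, 0.079 and 0.0111 in Eo+ cells. All Eo- libraries were the highest at both loci. Dtnb was also highest in Eo- cells, at 62.5 ± 6.11 CPM, with 0.78 ± 0.11 in Eo- vs ESC (adjusted p = 2.33e-05) and -1.10 ± 0.11 in Eo+ vs Eo- (adjusted p = 3.73e-06). XLOC_005257 and XLOC_018290 had Eo- means of 0.587 ± 0.196 and 0.591 ± 0.115 CPM. In Eo+ cells both were raised in replicate 5, at 0.202 CPM against 0.0251 to 0.0258 CPM and at 0.354 CPM against 0.0527 to 0.0710 CPM, and were still below every Eo- library there.

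Changes of members and of their nearest tested named gene were then set side by side. Where both were called, they had the same direction at 1281 of 1893 members in Eo+ vs ESC (67.7%), at 1070 of 1624 in Eo- vs ESC (65.9%) and at 683 of 971 in Eo+ vs Eo- (70.3%). Neighbouring pairs of named genes had the same direction in 62.0%, 64.9% and 67.5% of cases. The share was highest close to the gene. For divergent members within 1 kb it was 146 of 175 (83.4%), 95 of 116 (81.9%) and 70 of 76 (92.1%) in the 3 comparisons, against 73.9%, 77.5% and 91.0% for divergent pairs of named genes at this distance. Intergenic loci of several exons had shares of 88.0%, 83.8% and 94.6% there.

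Members downstream on the gene's strand within 5 kb had the same direction at 127 of 153 (83.0%), 97 of 116 (83.6%) and 79 of 85 (92.9%) loci, against 63.6%, 63.0% and 68.4% of such pairs of named genes. For intergenic loci of several exons the shares were 85.5%, 86.8% and 94.6%, each above that of the single-exon members. Upstream members on the gene's strand within 5 kb had the same direction at 79.4%, 76.1% and 72.5%, and such pairs of named genes at 63.3%, 64.1% and 72.3%. Convergent members within 5 kb did so at 60.9%, 63.2% and 53.7%, against 52.7%, 61.0% and, with 216 of 360, a higher share of convergent named pairs, and members over 100 kb away at 52.6%, 54.4% and 51.0%. The shares are counts over loci that share libraries and, in chains, neighbours. They carry no test. Without members that passed through 1 group alone, the shares were 68.1%, 65.5% and 70.1% over all distances, 81.0%, 80.4% and 90.4% for divergent members within 1 kb, and 81.6%, 82.2% and 91.4% for downstream members within 5 kb.

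**Figure D4:**
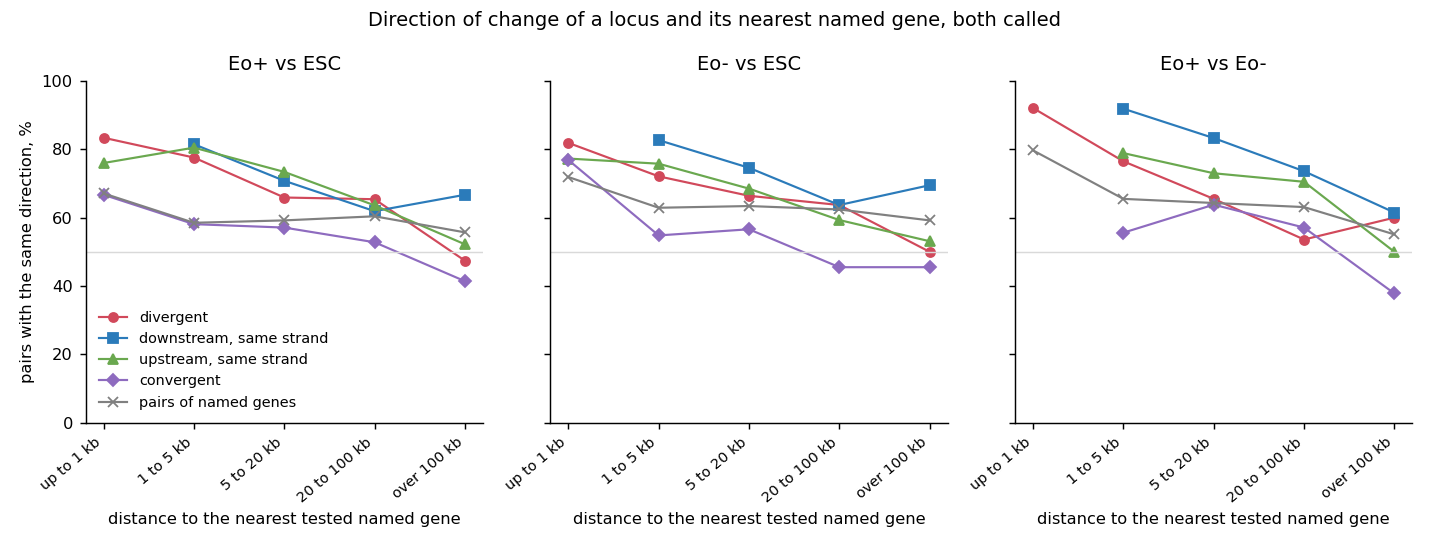
Percent of pairs of a member and its nearest tested named gene that changed in the same direction, both called, by distance and orientation. Pairs of named genes are grey and pooled over all orientations, unlike the members. Points with fewer than 20 pairs are left out. Divergent members reached 83.4%, 81.9% and 92.1% within 1 kb, and all members 52.6%, 54.4% and 51.0% over 100 kb.

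Promoters beside divergent members held more CG dinucleotides than promoters at large. In the 250 bases before the RefSeq start, 281 genes with a divergent member within 1 kb had a median of 20 CG dinucleotides, against 14 for all 12446 tested genes with a sequence, and 85.4% against 66.6% held at least 10. The motif GGGCGG, searched on both strands, was in 71.2% of these promoters and in 55.3% of all, and TATAAA, likewise on both strands, in 4.63% and 7.10%. Promoters of genes with a convergent, upstream or downstream member within 1 kb had medians of 15.5, 12 and 17.5. No test was made, and a match of letters is not a binding site. Of the 4 promoters printed above, those of Bspry and T held GGGCGG and that of Bspry alone TATAAA.

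At Tchp, a gene for a keratin-binding protein of the centrosome, the member XLOC_055904 (chr5:114707192-114707542, minus strand, 351 bp) starts 236 bases before the gene on the other strand. It held 5.65, 3.31, 9.23 and 4.57 CPM in ESCs, 13, 15.8, 19.5 and 18.1 in Eo- and 13.6, 19.4, 18.6 and 17.6 CPM in Eo+ cells, and rose by 1.68 ± 0.24 in Eo+ vs ESC (adjusted p = 2.15e-05) and by 1.62 ± 0.24 in Eo- vs ESC (adjusted p = 4.95e-05). All day 3 libraries lay above all ESC libraries. Tchp changed by 0.28 ± 0.10 in Eo+ vs ESC (adjusted p = 0.0281), from 18.1 ± 2.35 to 22 ± 1.32 CPM, and the member exceeded it per kilobase, with 49.3 against 5.6 FPKM in Eo+ cells.

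The member at Bspry, XLOC_050580 (chr4:62479680-62479930, minus strand, 251 bp), starts 131 bases before the gene. It rose by 2.46 ± 0.24 in Eo+ vs ESC (adjusted p = 4.52e-07), from 0.954, 0.635, 1.79 and 0.971 CPM in ESCs to 4.99, 5.52, 6.86 and 5.29 CPM in Eo+ cells, with no overlap. Bspry, which encodes a B-box and SPRY domain protein, fell by 0.68 ± 0.15 in the same comparison (adjusted p = 0.00133), in the other direction. Whether the bases that the member covers belong to a repeat was not analysed, and neither was whether it starts from this promoter.

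Genes with a known part in pluripotency or in the lineages of day 3 were taken from 8 lists of 138 genes. Of these genes 47 had a member within 50 kb, 73 members in all. For comparison, 23.7% of all members and 31.6% of all tested loci were called higher in Eo+ vs ESC, and 32.4% and 33.0% lower. In Eo+ vs Eo-, 8.34% and 19.6% were higher, and 1438 of 4794 members and 23.2% of all loci lower. The 20 members beside mesendoderm genes were mostly higher in Eo+ cells, 14 higher and 1 lower in Eo+ vs ESC and 11 higher and 1 lower in Eo+ vs Eo-. Of the 27 beside pluripotency genes, 5 were higher and 15 lower in Eo+ vs ESC, and 5 higher and 9 lower in Eo+ vs Eo-. Both members beside two-cell-like genes had passed the level rule through ESC libraries alone, so that they had to be lower. Beside the 4 other lists with more than 1 member, the counts were 4 higher and 0 lower of 7 for cardiac mesoderm, 4 and 4 of 10 for formative epiblast, 1 and 1 of 4 for feeder fibroblast and 0 and 0 of 2 for neuroectoderm genes in Eo+ vs ESC. The 1 member beside a visceral endoderm gene was lower. In all lists together, member and gene were both called for 49 of 78 pairs in Eo+ vs ESC, 42 of them in the same direction. The numbers were 34 of 41 in Eo- vs ESC and 36 of 38 in Eo+ vs Eo-. These counts include 16 members that passed the level rule through 1 group alone. Without these, 10 of 16 members beside mesendoderm genes were higher and 1 lower in Eo+ vs ESC, and 7 and 1 in Eo+ vs Eo-. Beside pluripotency genes 5 of 21 were higher and 9 lower in Eo+ vs ESC, and 5 and 4 in Eo+ vs Eo-. Member and gene then had the same direction in 28 of 35 pairs in Eo+ vs ESC, 24 of 30 in Eo- vs ESC and 24 of 26 in Eo+ vs Eo-. With the replicate block and all 73 members, these were 43 of 49, 38 of 47 and 36 of 40 pairs. Beside mesendoderm genes 15 members were then higher and 0 lower in Eo+ vs ESC.

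The list genes themselves moved as follows in Eo+ vs ESC, where 31.6% of all tested loci were higher and 33.0% lower: 27 of 32 mesendoderm genes were called higher and 2 lower, 24 of 28 pluripotency genes lower and 2 higher, and 9 of 9 two-cell-like genes lower. The lists include genes that the study used to describe these cells, and Eomes was the gene sorted for.

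T, also called Brachyury, is a T-box factor of the primitive streak. XLOC_031219 (chr17:8432413-8433959, minus strand, 1547 bp) points away from its annotated start at 0.464 kb. It lies inside the longer extent that the assembly gave to the T locus, on the other strand, and held 0.276, 0.239, 0.478 and 0.204 CPM in ESCs, 1.62, 1.35, 0.796 and 1.52 in Eo- and 2.6, 3.67, 3.27 and 3.61 in Eo+ cells. The 3 groups formed steps with no overlap, and the member rose by 3.51 ± 0.28 in Eo+ vs ESC (adjusted p = 6.55e-08) and by 1.35 ± 0.24 in Eo+ vs Eo- (adjusted p = 0.00041). T rose by 2.71 ± 0.37 (adjusted p = 1.31e-05) and 1.53 ± 0.33 (adjusted p = 0.00198), to 628 ± 146 CPM.

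Sp5, a zinc finger factor induced by Wnt signals, has XLOC_041005 (chr2:70468465-70471997, minus strand, 3533 bp) at 2.93 kb on the other strand. It held 0.104, 0.0884, 0.113 and 0.0522 CPM in ESCs, 0.0691, 0.0869, 0.0478 and 0.0286 in Eo- and 0.532, 0.979, 0.454 and 0.697 in Eo+ cells. Only the Eo+ libraries stood above the rest, with a rise of 3.55 ± 0.40 in Eo+ vs Eo- (adjusted p = 1.18e-05), where Sp5 rose by 2.94 ± 0.38 (adjusted p = 3.29e-05). Sp5 fell by 1.27 ± 0.41 in Eo- vs ESC (adjusted p = 0.0156), and the member changed by -0.70 ± 0.47 without a call.

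Zfp42, or Rex1, a zinc finger gene of naive ESCs, was followed on its own strand by 3 members, XLOC_068809, XLOC_068808 and XLOC_068807, at 1.91, 2.51 and 3.56 kb. XLOC_068807 (chr8:43288459-43290680, minus strand, 2222 bp) was the highest and held 3.58, 4.95, 4.55 and 6.5 CPM in ESCs, 0.316, 0.275, 0.284 and 0.434 in Eo- and 0.0904, 0.0738, 0.0705 and 0.0458 in Eo+ cells, in steps without overlap. The log2 changes in Eo+ vs ESC were -6.09 ± 0.34 at XLOC_068807, -8.91 ± 0.75 at XLOC_068808 and -6.86 ± 0.64 at XLOC_068809 (adjusted p = 2.81e-09 and 1.25e-07 for the first 2; XLOC_068809 had passed the level rule through ESC libraries alone), beside -6.83 ± 0.21 at Zfp42 (adjusted p = 1.88e-11), which went from 504 ± 76 to 4.41 ± 0.436 CPM. Outside ESCs, XLOC_068808 held 0.0522 to 0.0973 CPM in Eo- and 0.00132 to 0.0367 CPM in Eo+ libraries. It thus passed the level rule mainly through ESC libraries, and its adjusted p carries a similar limit. With 1.60 to 2.47 FPKM in ESCs against 165 FPKM for Zfp42, the 3 members stood at a small part of the gene's level, and the fall of XLOC_068809 in Eo+ vs Eo- was lost without Eo+ replicate 2 or 6.

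Genes of the Nodal pathway had members on either side. XLOC_073623 (chr9:110933567-110937473, minus strand) lies 2.14 kb downstream of Tdgf1, the Nodal co-receptor Cripto, and held 0.283, 0.385, 0.428 and 0.406 CPM in ESCs, 0.144, 0.189, 0.227 and 0.216 in Eo- and 0.434, 1.2, 0.45 and 1.31 in Eo+ cells. All Eo+ libraries were the highest, by 1.95 ± 0.38 in Eo+ vs Eo- (adjusted p = 0.000913), and Tdgf1 by 1.66 ± 0.20 (adjusted p = 1.7e-05). Near the Nodal antagonist gene Lefty1, the divergent member XLOC_004945, 10.2 kb away, went from 2.33 ± 0.239 CPM in ESCs to 0.594 ± 0.144 in Eo- and 1.14 ± 0.435 in Eo+ cells, where replicate 5 held 1.79 CPM and the others 0.885 to 0.971 CPM. Its changes in Eo+ vs ESC and Eo+ vs Eo- were -1.09 and 0.91, and those of Lefty1 -2.36 and 0.89, all called. XLOC_004940, 16.8 kb from Lefty2 but closest to Sde2 at 0.926 kb, fell by 1.51 ± 0.32 in Eo- vs ESC (adjusted p = 0.00105) and was higher in Eo+ than in Eo- cells by 1.55 ± 0.32 (adjusted p = 0.00144).

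Zscan4d, a gene of the rare two-cell-like state of ESCs, has XLOC_060964, on the pseudogene Gm18204, at 8.34 kb. The member went from 0.868 ± 0.246 CPM in ESCs to 0.00703 ± 0.00679 CPM in Eo+ cells, a change of -7.55 ± 0.79, for which no test is given because it had passed the level rule through ESC libraries alone. Zscan4d went from 14.1 ± 5.84 CPM to a single Eo+ library with any count.

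Not every member followed its list gene. XLOC_010932, divergent from the ETS factor gene Etv4 at 7.65 kb, fell from 0.846 ± 0.143 CPM in ESCs to 0.225 ± 0.0839 in Eo- and 0.0479 ± 0.022 in Eo+ cells, a log2 change of -4.28 ± 0.43 in Eo+ vs ESC (adjusted p = 7.52e-07). Etv4 was at 90.3 ± 13 and 98.1 ± 19.4 CPM and changed by 0.11 ± 0.16, which was not called. Beside Lef1, a factor of the Wnt pathway, XLOC_046859 fell by 0.76 ± 0.25 in Eo+ vs ESC (adjusted p = 0.0166, lost without Eo+ replicate 5), whereas Lef1 was higher there (adjusted p = 0.000167). Gbx2, a homeobox gene that fell by 4.88 ± 0.22 in Eo+ vs ESC, had XLOC_003796 at 15.6 kb, which lies closer to Asb18 (3.18 kb) and D130058E05Rik (13.5 kb), with -0.23 ± 0.26 and no call there.

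The remaining named loci near list genes were XLOC_048810 beside Pou3f1, XLOC_012314 upstream of Wnt3a at 10.3 kb, but closest to Wnt9a at 5.67 kb, and XLOC_049118 upstream of Id3 at 41.2 kb. XLOC_048810 was highest in Eo- cells, at 1.55 ± 0.402 CPM against 0.952 ± 0.349 in ESCs and 0.951 ± 0.193 in Eo+ cells, as was the POU factor gene Pou3f1 with 87.1 ± 16.4 CPM. The member's call in Eo+ vs Eo-, -0.70 ± 0.27 at an adjusted p of 0.0462, was lost under 10 alternatives and that in Eo- vs ESC under 4. XLOC_012314 rose by 1.51 ± 0.22 in Eo+ vs ESC (adjusted p = 2.22e-05), where the Wnt ligand gene Wnt3a changed by 1.02 ± 0.54 with no call and Wnt9a, another Wnt ligand gene, fell by 1.43 ± 0.25 (adjusted p = 0.000135). XLOC_049118 rose by 0.80 ± 0.25 in Eo- vs ESC (adjusted p = 0.0127), and Id3, an inhibitor of bHLH factors, by 0.35 ± 0.10 (adjusted p = 0.00861). Over 15 members named for a list gene, both were called in 9 (Eo+ vs ESC), 9 (Eo- vs ESC) and 10 (Eo+ vs Eo-) cases, and had the same direction in 8, 9 and 10 of them. Without XLOC_068809 and XLOC_060964, which had to be lower than in ESCs, these were 7, 7 and 8 cases, with the same direction in 6, 7 and 8. XLOC_068808, which outside ESCs came near the level rule in Eo- libraries only, remains in these counts. With the replicate block, both were called for 9, 13 and 11 of the 15, with the same direction in 8, 11 and 10. The block added pairs of opposite direction, among them Lef1 with XLOC_046859 in Eo- vs ESC (adjusted p = 0.0268 and 0.00664) and Etv4 with XLOC_010932 in Eo+ vs Eo- (adjusted p = 0.00988 and 0.000895).

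**Figure D5:**
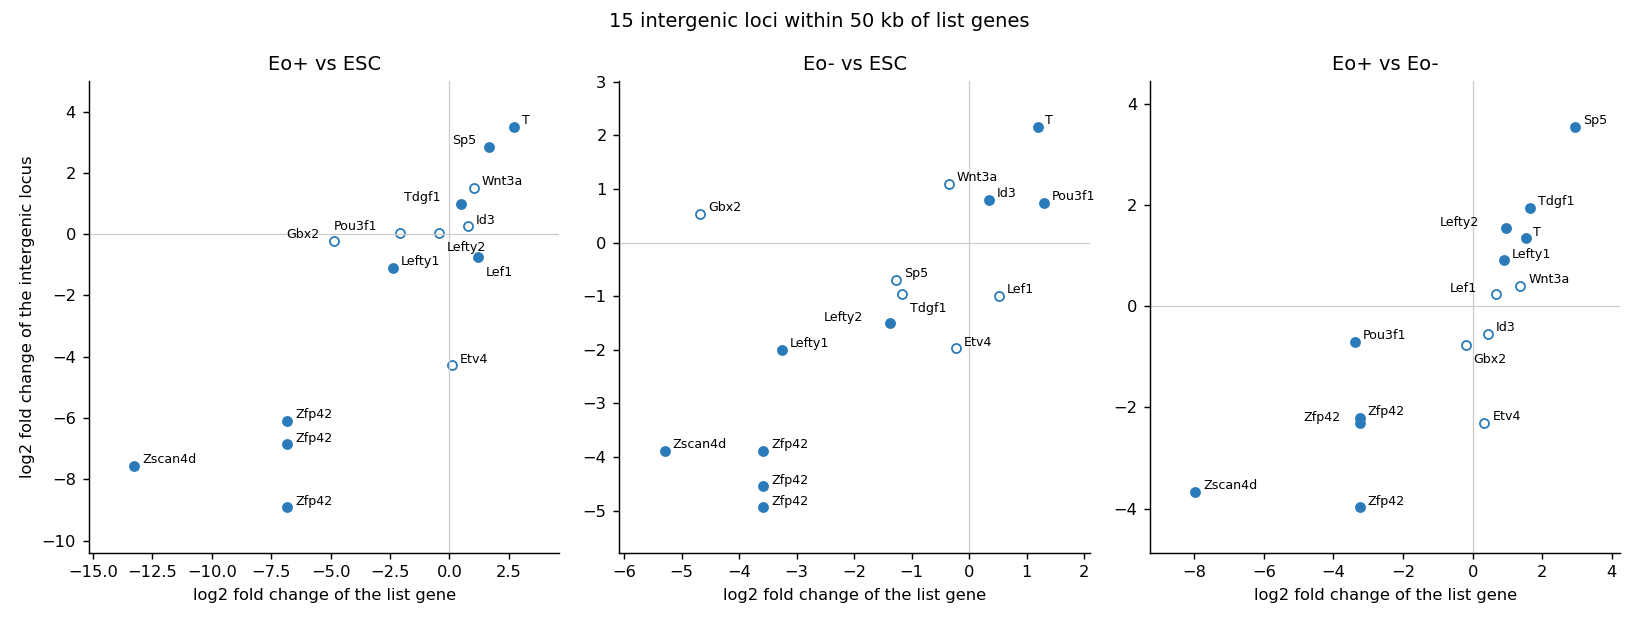
Log2 fold change of 15 members against that of the list gene within 50 kb, per comparison; filled points mark pairs in which both were called. In Eo+ vs ESC, 8 of the 9 filled pairs share their direction, 2 of them at members that passed through ESC libraries alone, and Lef1 is the exception.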

How the data were processed

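Poly(A) RNA of 12 libraries was sequenced. According to the labels and the study's methods, the authors aligned reads to mm10 with STAR (2.0.4 in the submitters' processing notes, another version in the methods), merged Cufflinks 2.2.1 assemblies with the Ensembl annotation, and counted uniquely placed reads per locus and strand with HTSeq 0.6.1. The deposited table held raw counts, not normalized, and 5 tally entries were left out. Library totals were 648413022 to 837308168, and 357 of the 80012 loci had no position in the deposited annotation.

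Loci with 0.1 CPM in at least 4 libraries were scaled by TMM and tested with voom and limma 3.58.1 (R 4.3.3; 1 mean per group, pseudocount 0.5 counts, Benjamini-Hochberg adjustment over 27016 loci, adjusted p at most 0.05), with edgeR 4.0.16 and DESeq2 1.42.0 as alternatives. The code was tested on simulated counts. The floor was 3 counts and covers counting error only. Same-numbered Eo- and Eo+ libraries deviated together, with correlations of 0.114 to 0.335. Those of same-numbered ESC libraries were -0.0283 to 0.181 with Eo- and -0.0352 to 0.0612 with Eo+ libraries. The numbers were taken to mark sets of differentiation and to pair the fractions. Counts and adjusted p are from the fit without this pairing unless the replicate block is named.

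The rule and gene lists were chosen with earlier results of these data known. Named members were the 4 largest rises and falls per comparison without overlap and of 1 CPM or more, the 8 highest, the 4 largest Eo- leads, and up to 16 members nearest to list genes. Repeats, GC content and poly(A) signals of members were not analysed here. The results of 1 member beside a list gene and of 1 parent gene of a pseudogene are not reported here.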

Additional observations from a re-analysis of the deposited data

Results flagged for a closer look

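Of 144 group values of 48 named members, 12 had a single library apart from the other 3 of its group by Dixon's criterion, where chance gives about 1 in 20. XLOC_071905, XLOC_059289 and XLOC_023998 were named for a mean that Eo+ replicate 1 had raised, and without these 3 members 9 of 135 values remain. All 12 were Eo+ libraries, 5 of them replicate 1 and the others replicate 5.

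In Eo+ replicate 1, XLOC_071905 held 188 CPM, where the rest of its group held 3.09 to 6.33 CPM, XLOC_059289 held 144 CPM against 5.33 to 14.7 CPM, and XLOC_023998 held 112 CPM against 4.05 to 5.52 CPM. The same library was the lowest at XLOC_036956, with 0.671 CPM against 1.16 to 1.25 CPM, and at XLOC_035662, with 18.6 CPM against 21.6 to 22.0 CPM.

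Eo+ replicate 5 was the highest at the others. It held 0.0113 CPM at XLOC_033885 against 0 to 0.00158 CPM, 0.0479 CPM at XLOC_020021 against 0.0132 to 0.0181 CPM, and 0.0367 CPM at XLOC_068808 against 0.00132 to 0.00258 CPM, all loci that had fallen from ESC levels. At the Eo- led loci XLOC_005257 and XLOC_018290 it held 0.202 CPM against 0.0251 to 0.0258 CPM and 0.354 CPM against 0.0527 to 0.0710 CPM. At XLOC_004945 near Lefty1 it held 1.79 CPM against 0.885 to 0.971 CPM, and at XLOC_068656 on Nudc-ps1 54.6 CPM against 47.3 to 48.2 CPM.

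At 2 members the fractions were called in opposite directions against ESCs, and the test of the difference is Eo+ vs Eo-. XLOC_047366 changed by -4.20 in Eo+ vs ESC and by 0.65 in Eo- vs ESC, a difference of -4.85 (log2). Its rise in Eo- vs ESC was lost under several alternatives, as given above. XLOC_015518 changed by -1.93 and 2.16, a difference of -4.10. With the replicate block, limma also called XLOC_073623 in opposite directions. It changed by 1.03 in Eo+ vs ESC (adjusted p = 0.00973) and by -0.97 in Eo- vs ESC (adjusted p = 0.0223).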

How the results depend on the processing

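None of the called log2 changes at named members reversed under an alternative that was run; the split of all members in Eo- vs ESC turned as given above. The counts of called members stayed within 1.5 times of 2690, 2658 and 1838 (Eo+ vs ESC, Eo- vs ESC, Eo+ vs Eo-) under every alternative but 1: with a filter of 1 CPM in 4 libraries, which kept 410 members, 239, 246 and 218 were called. Leaving out 1 library gave 2521 to 2691, 2347 to 2783 and 1440 to 1963, the lowest of the last without Eo+ replicate 1. The replicate block gave 2805, 2733 and 2061, and 2237 for the sorted fractions alone, which was added after the pairing was seen. Beside the changes given with the values above, it added calls in Eo- vs ESC at XLOC_073623 (adjusted p = 0.0223) and XLOC_003796 (adjusted p = 0.0448), and it changed no other call at a named member. The number of members was 8476 at a level of 0.05 CPM and 2463 at 0.2 CPM. Over all tested pairs, called or not, member and nearest gene had the same sign in 59.2%, 57.6% and 56.6% of cases. Of 104 calls at named members, 10 were lost under at least 1 alternative, and of 2062 values 2022 stayed on the same side of the threshold. The alternative on poly(A) signals was not run, since only promoter and annotated transcript sequences were used here, and not those of the members themselves. At these depths 3 counts are worth at most 0.00474 CPM in a library.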

Other observations

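Weakly transcribed members lay within 1 kb of several list genes, below the level asked of named members, and are given here after their values were seen. XLOC_073723 (chr9:118476012-118477858, minus strand, 1847 bp) overlaps the assembled start of Eomes itself on the other strand. It held 0.0606, 0.0775, 0.0755 and 0.0254 CPM in ESCs, 0.156, 0.188, 0.166 and 0.143 in Eo- and 0.331, 0.492, 0.458 and 0.577 in Eo+ cells, without overlap between groups. Its log2 changes were 3.01 ± 0.34 in Eo+ vs ESC (adjusted p = 2.4e-06) and 1.48 ± 0.26 in Eo+ vs Eo- (adjusted p = 0.000373), beside 3.52 and 1.98 for Eomes, the gene sorted for.

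XLOC_002445, 0.693 kb from Mixl1, a homeobox gene of the primitive streak, went from 0.0392 ± 0.0121 CPM in ESCs to 0.479 ± 0.164 CPM in Eo+ cells (3.55 ± 0.41, adjusted p = 2.65e-06), and XLOC_039912, 0.451 kb from the BMP ligand gene Bmp7 and past the level rule in Eo+ libraries alone, from 0.00126 ± 0.00252 to 0.173 ± 0.0288 CPM. XLOC_066421, 0.964 kb from the growth factor gene Fgf4, had 0.241 ± 0.0593 CPM in ESCs and 0.0281 ± 0.0153 CPM in Eo+ cells (-3.22 ± 0.44, adjusted p = 1.52e-05). XLOC_004733, 0.068 kb from Lmx1a, a homeobox gene of the neural tube, took another course. It held 0.0396, 0.0449, 0.0289 and 0.0597 CPM in ESCs, 0.316, 0.322, 0.457 and 0.236 in Eo- and 0.0542, 0.0119, 0.133 and 0.0221 in Eo+ cells, and was higher in Eo- cells than in both other groups, by 2.94 ± 0.49 over ESCs (adjusted p = 0.000153), as was Lmx1a itself (adjusted p = 9.21e-05). XLOC_014118, 0.174 kb from Mycn, changed by -0.81 ± 0.33 in Eo+ vs ESC (adjusted p = 0.0416). XLOC_002445, XLOC_039912 and XLOC_014118 lie wholly or in part inside the full assembled extents of the loci of Mixl1, Bmp7 and Mycn, so that the distances hold for the annotated genes. Over the other 6 members within 1 kb of a list gene, leaving out XLOC_039912, member and gene were both called in 5 cases in Eo+ vs ESC and had the same direction in all 5.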
